A study of Homo sapiens with 12 samples.

Results

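The genes described here are 32 subunits of ion channels that set the membrane potential of islet cells and admit calcium, chosen by gene symbol from the 28278 rows of the count table. They comprise both subunits of the ATP-sensitive potassium (KATP) channel, 11 subunits of voltage-gated calcium channels, 6 of voltage-gated sodium channels and 13 potassium channel genes of other families. All 32 were found and all 32 passed the filter on low counts, with 12 to 22929 raw counts per sample. The samples were pancreatic alpha cells, the glucagon-secreting cells of the islet, made in culture from HUES-8, which is an embryonic stem cell line of human origin. Of the 12 samples 6 received the solvent DMSO and 6 received 5 uM tunicamycin, both for 48 h in bioreactors of 30 mL turning at 40 rpm. Tunicamycin blocks the first step of N-glycan assembly and so causes ER stress. Each of 2 sequencing batches held 3 samples of each group, numbered 1 to 3 and 4 to 6. All samples came from 1 cell line, and the labels mention no sort of the cells.

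In alpha cells, KATP channels couple metabolism to the membrane potential, background and voltage-gated potassium channels hold or restore it, and sodium and calcium channels carry action potentials. Calcium that enters through these channels triggers exocytosis of glucagon. A voltage-gated calcium channel has a pore-forming alpha1 subunit, encoded by a CACNA1 gene, and often a cytosolic beta subunit (CACNB) and an extracellular alpha2delta subunit (CACNA2D), which help bring the pore to the cell surface. Many channel subunits are membrane glycoproteins that are folded and assembled in the ER.

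The labels were checked on marker genes. The 15 alpha cell markers, which include the glucagon gene GCG, were all detected. Their summed level, mostly GCG and TTR, was 80530 to 120100 CPM with DMSO and 59690 to 96110 CPM with tunicamycin (CPM, the usual unit for counts scaled to library size). Of these markers 2 fell, and all 10 ER stress genes on a check list rose. Libraries held 17523442 to 28872269 counts. Transcripts of other cells were present too: the summed level of 18 heart muscle markers ran from 40.5 to 2584 CPM with DMSO and from 39.6 to 1401 CPM with tunicamycin, and it was 273 CPM or more in DMSO 1, 4 and 5 and in tunicamycin 4 and 5 and at most 93.5 CPM in the other 7 libraries. Some markers of other endocrine cells moved with treatment. Of 10 beta cell markers, which summed to 1583 to 3968 CPM with DMSO and 795 to 2794 CPM with tunicamycin, with DLK1 the largest part, 4 fell. Of 6 enterochromaffin markers (1145 to 1744 and 1093 to 1969 CPM, with CHGB the largest part) 2 fell. Of 6 delta, PP and epsilon cell markers (1002 to 5263 and 1458 to 2927 CPM, with SST the largest part) 0 passed, with 2 at an unadjusted p under 0.05 in edgeR. The 16 mesenchymal markers summed to 1418 to 3768 CPM and 1209 to 2463 CPM. Neurons express many of these channels too, and 13 neuronal markers summed to 1273 to 2061 CPM with DMSO and 1434 to 1814 CPM with tunicamycin, with 0 of them passing in edgeR and 2 higher and 3 lower when samples were paired by number (5 at an unadjusted p under 0.05 without it). In bulk samples fewer cells of a type and less RNA per cell cannot be told apart.

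The levels of the channel genes spanned a wide range when divided by the length of each gene's longest coding transcript. KCNK16, which encodes a pancreatic tandem-pore potassium channel that passes a background current, had the highest mean with DMSO, 219 ± 42.6 CPM per kb (SD, n = 6). ABCC8, which encodes the sulfonylurea receptor, the regulatory subunit of the KATP channel, followed at 155 ± 28.5 CPM per kb. These overlapped: the lowest sample of KCNK16, 167 CPM per kb, was below the highest of ABCC8, 197 CPM per kb. The lowest sample of ABCC8, 131 CPM per kb, was above the highest of KCNJ11, 51.0 CPM per kb. KCNJ11, the KATP pore, averaged 43.9 CPM per kb and was followed by KCNH6 (38.1 CPM per kb), CACNA2D2 (37.3), CACNA1H (34.1) and KCNH2 (29.7). Ranges of the genes next to each other in this order overlapped, while the lowest sample of KCNJ11, 35.9 CPM per kb, was above the highest of KCNH2, 34.7. The lowest means were those of KCNQ1 (0.456 CPM per kb), KCNN3 (0.634), CACNA1E (0.768) and SCN1A (0.898), which overlapped as well. The order depends on the length used. With the union of all annotated exons CACNA1A was 22nd rather than 11th and KCNMA1 21st rather than 12th, whereas the first 4 places were unchanged.

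**Figure D1:**
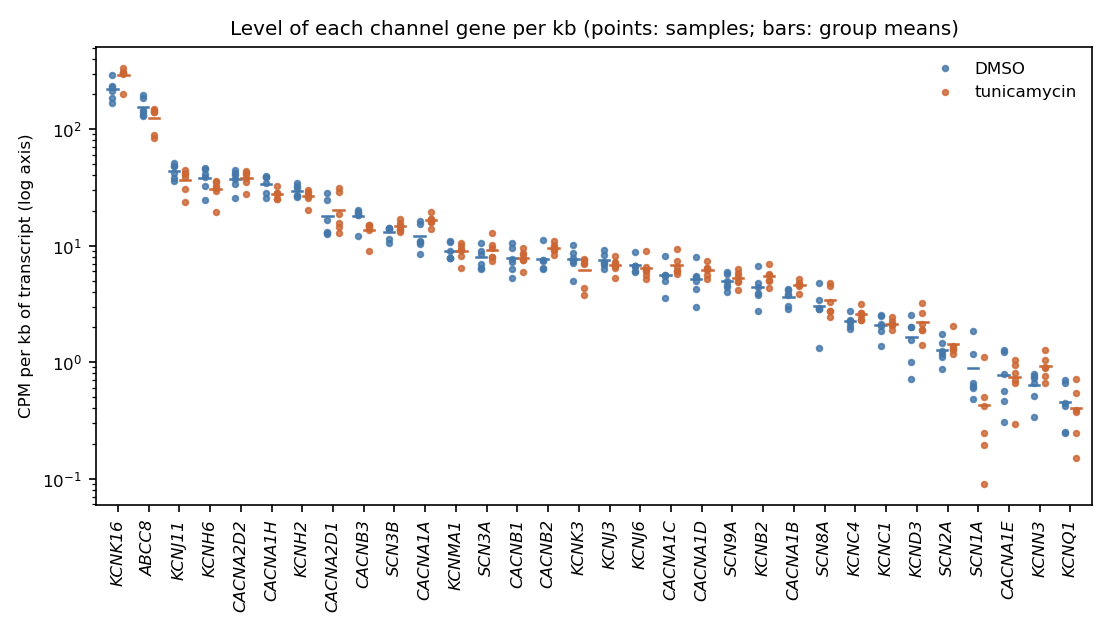
Level of each of the 32 channel genes in CPM per kb of its longest coding transcript, on a log axis, ordered by the DMSO mean; points are the 6 DMSO (blue) and 6 tunicamycin (orange) samples and bars are group means. KCNK16 and ABCC8 stand above the rest, and the ranges of both groups overlap for every gene.

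With samples treated as independent, no channel gene passed in edgeR or limma-voom, and 2 passed in DESeq2. Under edgeR's quasi-likelihood model with a batch term, 0 of 32 members rose and 0 fell at an adjusted p of 0.05, whereas 7.84% of the 17137 genes tested did (4.56% higher and 3.29% lower). At an unadjusted p under 0.05 there were 8 members, or 25.0%, against 22.0% of all genes. limma-voom also gave 0 and 0, where 7.66% of genes passed. DESeq2 gave 2 higher, CACNA1A and KCNK16, and 0 lower, where 12.3% of genes passed (6.40% as higher). The fold changes were small. They ran from -1.05 (SCN1A) to 0.54 (KCNN3) on the log2 scale, only that of SCN1A reached 1 in size, and the median of the members was 0.07 against -0.01 over all genes. By class, the median was -0.30 for the 2 KATP genes, both below 0, and 0.14 for the calcium channel genes, with 8 of 11 above 0. It was 0.17 for the sodium channel genes, with 5 of 6 above 0, and -0.02 for the other potassium channel genes, with 6 of 13 above 0, while 48.3% of all genes were above 0. For none of the 32 genes did the 6 tunicamycin samples lie wholly above or below the 6 DMSO samples, which was the case for 3.77% of all genes.

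Samples with the same number varied together, moderately for numbers 1 to 3 and only weakly for 4 to 6. Their deviations from group and batch means correlated at 0.505 to 0.579 for numbers 1 to 3 and at 0.120 to 0.184 for 4 to 6. Each tunicamycin sample was therefore also compared with the DMSO sample of its number. With the number as a block, 10 of the 32 members passed (31.2%), 6 higher and 4 lower, where 17.3% of all genes passed (8.92% higher and 8.40% lower). The 6 that rose were the calcium channel pores CACNA1A, CACNA1B and CACNA1C, the beta subunit CACNB2, and the potassium channels KCNB2 and KCNK16. The 4 that fell were KCNJ11, the beta subunit CACNB3, the sodium channel pore SCN1A and the potassium channel KCNK3. Calls of CACNA1A, CACNB3 and SCN1A also stood in each of the 6 fits that left out 1 numbered pair, with adjusted p of at most 0.0250. CACNA1B and CACNB2 passed in 4 of those fits, KCNK16 in 2, KCNJ11, CACNA1C and KCNK3 in 1 and KCNB2 in 0. Only CACNB3 passed when the fit with the block was limited to numbers 2, 3 and 6, where heart muscle markers summed to at most 93.5 CPM in each library and 4.68% of genes passed (1.65% as lower). When the mesenchymal marker mean was added to the block, KCNK16 was the only member that passed, where 1.65% of all genes did (1.34% as higher). That mean moved with treatment, as 12 of the 16 markers fell with the block, and its part in the result was not tested. In 11 members the tunicamycin sample differed from its DMSO partner in the same direction in all 6 pairs, 6 higher and 5 lower, as did 21.1% of all genes.

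**Figure D2:**
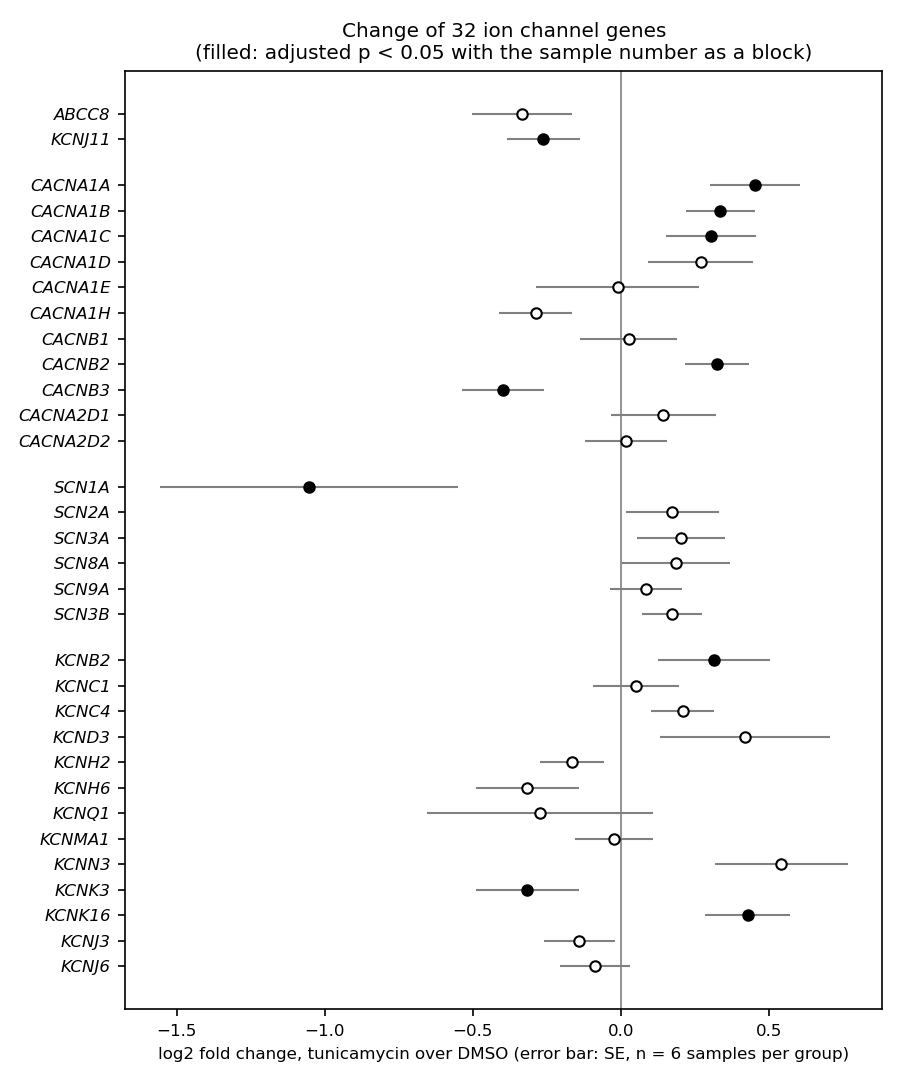
Log2 fold change of tunicamycin over DMSO for each member, grouped from top to bottom into KATP, calcium, sodium and potassium channels; points are estimates of the fit with batch, bars are standard errors (6 samples per group), and filled points mark the 10 genes with an adjusted p under 0.05 when the sample number is a block. SCN1A at -1.05 has the largest change and the widest error, and the other 31 genes lie between -0.40 and 0.54.

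The KATP channel is a complex of pores encoded by KCNJ11 and receptors encoded by ABCC8, neighbouring genes on chromosome 11 (KCNJ11 at 17385859 to 17389331 and ABCC8 at 17392498 to 17476879, minus strand, GRCh38). ABCC8 stood at 698, 765 and 1053 CPM with DMSO (lowest, median and highest sample) and at 451, 742 and 790 CPM with tunicamycin. Its 2 lowest tunicamycin samples were below every DMSO sample, the other 4 were within the DMSO range, and the change did not pass (log2 fold change -0.33 ± 0.17 SE, adjusted p = 0.265, and 0.0734 with the block). The change of ABCC8 was -0.56 in batch 1 and -0.10 in batch 2, a difference that did not pass (edgeR interaction, adjusted p = 1). KCNJ11 stood at 100.5, 125 and 143 CPM and at 66.9, 112 and 125 CPM, and was lower in 6 of 6 pairs. Its log2 fold change was -0.26 ± 0.12 (adjusted p = 0.227), with an adjusted p of 0.0458 with the block. Within a sample the level of KCNJ11 per kb was 0.193 to 0.385 of that of ABCC8 with DMSO and 0.207 to 0.437 with tunicamycin, so that the ratio of the subunits overlapped between the groups. The size of this ratio depends on the length used. With DMSO the means of KCNJ11 and ABCC8 were 43.9 and 155 CPM per kb of transcript, but 38.3 and 65.9 with the union of exons. Beta cells express both genes too, and 4 of 10 beta cell markers were lower with tunicamycin (5 with the block), with a median log2 fold change of -0.56. Their part in the values of ABCC8 and KCNJ11 was not tested.

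Pore subunits of the high-voltage-activated calcium channels had positive fold changes except CACNA1E. CACNA1A, which encodes the P/Q-type pore, stood at 73.6, 94.6 and 140 CPM with DMSO and at 120, 142 and 168 CPM with tunicamycin. It was higher in 6 of 6 pairs, and 3 tunicamycin samples were above every DMSO sample. Its log2 fold change was 0.45 ± 0.15 (adjusted p = 0.0881, 0.00893 with the block and 0.35 and 0.56 in batches 1 and 2). CACNA1B, the N-type pore, stood at 28.2, 37.0 and 41.3 CPM and at 37.8, 45.2 and 50.9 CPM, with 5 tunicamycin samples above every DMSO sample. The log2 fold change of CACNA1B was 0.34 ± 0.12 (adjusted p = 0.100, and 0.0190 with the block). CACNA1C, an L-type pore also abundant in heart and smooth muscle, stood at 47.7, 74.3 and 110 CPM and at 76.8, 84.4 and 126 CPM. It was higher in 6 of 6 pairs by 0.30 ± 0.15 on the log2 scale (adjusted p = 0.267, and 0.0339 with the block). The lowest DMSO sample of CACNA1C was DMSO 5, which was the lowest for 11 of the 32 genes. DMSO 5 also had the highest sum of heart muscle markers, and the part of heart muscle in the values of CACNA1C was not tested. CACNA1D, the other L-type pore, was at 46.5 ± 14.9 and 55.5 ± 6.90 CPM, higher in 5 of 6 pairs (0.27 ± 0.18, adjusted p = 0.414, and 0.135 with the block). CACNA1E, the R-type pore, stood at 4.90, 10.9 and 20.6 CPM and at 4.75, 12.2 and 16.7 CPM (-0.01 ± 0.27, adjusted p = 0.988), and its sign was the opposite one in the fit with the block (0.02).

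CACNA1H, which encodes a low-voltage-activated T-type pore, was the only alpha1 gene among the members that was lower in every pair. It stood at 209, 298 and 325 CPM with DMSO and at 205, 230 and 268 CPM with tunicamycin. Only 2 tunicamycin samples were below the lowest DMSO sample. The log2 fold change was -0.29 ± 0.12 and did not pass (adjusted p = 0.190, and 0.0535 with the block). Outside the members, the alpha1 gene CACNA1G was lower in every pair too, and CACNA1I was not. CACNA1G stood at 5.77 to 13.3 CPM with DMSO and at 0.950 to 7.72 CPM with tunicamycin.

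Within each sample the make-up of the 6 alpha1 transcripts among the members differed between the groups. CACNA1H took 51.3% to 60.2% of their summed CPM per kb with DMSO and 42.5% to 46.5% with tunicamycin. CACNA1A took 16.5% to 22.6% and 23.6% to 28.9%. Neither pair of ranges overlapped, while the sum itself did, at 46.6 to 75.0 CPM per kb with DMSO and 57.2 to 71.6 with tunicamycin. With lengths from the union of exons the shares were 68.1% to 74.9% and 60.7% to 64.5% for CACNA1H and 4.29% to 6.26% and 6.84% to 8.74% for CACNA1A, again without overlap. These shares were chosen after the values had been seen, the shares of a sample are not independent of each other, and they carry no test. The sum leaves out alpha1 genes that are no members, such as CACNA1I (10.2 to 26.8 CPM with DMSO) and CACNA1G (5.77 to 13.3 CPM with DMSO).

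**Figure D3:**
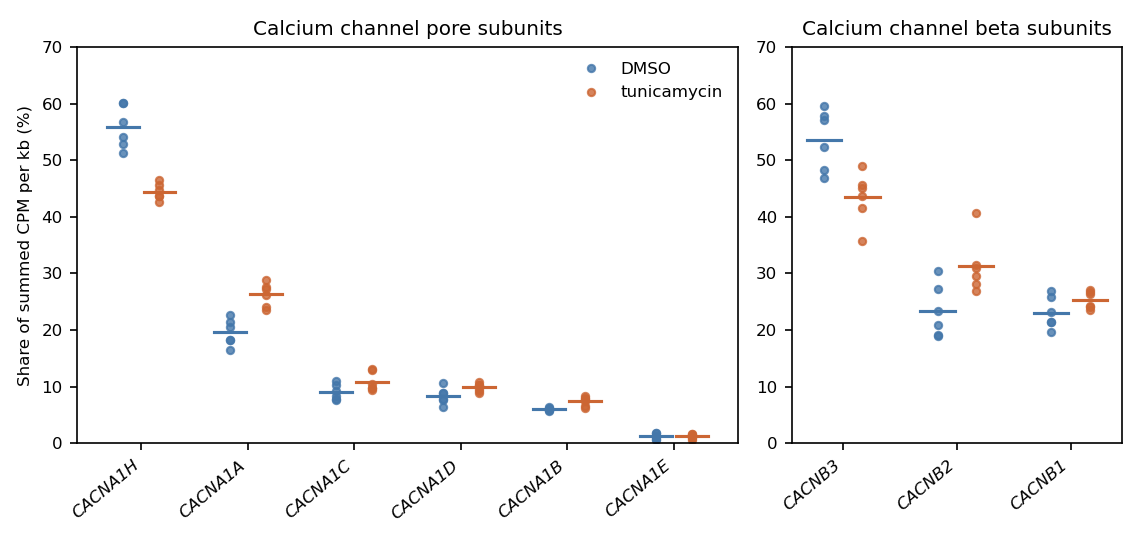
Share of each transcript, in percent, in the summed CPM per kb of the 6 calcium channel pore subunits (left) and of the 3 beta subunits (right) among the members, with points for the 6 DMSO (blue) and 6 tunicamycin (orange) samples and bars for group means. CACNA1H lies at 51.3% to 60.2% with DMSO and 42.5% to 46.5% with tunicamycin, and CACNA1A at 16.5% to 22.6% and 23.6% to 28.9%.

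Among the beta subunits, CACNB3 and CACNB2 moved in opposite directions with the block. CACNB3, a beta subunit abundant in neurons and islets, stood at 32.4, 50.7 and 54.5 CPM with DMSO and at 24.1, 38.8 and 40.8 CPM with tunicamycin. Both samples numbered 2 were the lowest of their groups, and without them all DMSO samples (from 49.6 CPM) were above all tunicamycin samples. The log2 fold change of CACNB3 was -0.40 ± 0.14 (adjusted p = 0.0969, and 0.00224 with the block), at -0.38 and -0.40 in batches 1 and 2. CACNB2, best known as the cardiac beta subunit, stood at 37.3, 43.8 and 65.8 CPM and at 48.7, 55.8 and 65.0 CPM. Its highest DMSO sample, DMSO 3, was above every tunicamycin sample, and the other 5 DMSO samples were below all of them. The log2 fold change of CACNB2 was 0.32 ± 0.11 (adjusted p = 0.0914, and 0.0171 with the block), and it passed without DMSO 3. Of the exon bases of CACNB2, 13.0% overlap other annotated genes on the opposite strand, and no source used here gives the strand setting of the counting. Exons of 15 of the 32 members overlap those of another gene. SCN3A, at 9.91% of exon bases, and CACNA2D2, at 9.59%, come next after CACNB2. CACNB1 was at 29.1 ± 7.32 and 29.55 ± 4.603 CPM (0.03 ± 0.16, adjusted p = 0.950). The share of CACNB3 among the 3 was lower in 6 of 6 pairs, with a mean of 53.7% with DMSO and 43.4% with tunicamycin, and the groups overlapped.

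The alpha2delta subunits did not pass in either fit. CACNA2D2 stood at 140, 213 and 244 CPM and at 153, 217 and 241 CPM (0.02 ± 0.14, adjusted p = 0.963, and 0.895 with the block). CACNA2D1, which is also widely expressed in muscle and stroma, was at 136 ± 51.4 and 153 ± 58.6 CPM (0.14 ± 0.18, adjusted p = 0.700). It was highest in the samples numbered 2 in both groups, at 214 and 235 CPM.

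Sodium channels carry the upstroke of the action potential, and 5 of the 6 sodium channel genes had small positive fold changes that did not pass. SCN3A, the most abundant pore per kb, stood at 57.4, 70.4 and 95.9 CPM with DMSO and at 67.4, 79.5 and 116 CPM with tunicamycin (0.20 ± 0.15, adjusted p = 0.469). In batch 1 its log2 fold change was 0.45 and in batch 2 -0.04, a difference that did not pass (edgeR interaction, adjusted p = 1). SCN3B, an accessory beta subunit with a single membrane span, stood at 63.8, 84.1 and 86.4 CPM and at 79.6, 86.3 and 103 CPM (0.17 ± 0.10, adjusted p = 0.357). The pores SCN9A (48.2 ± 7.35 and 51.2 ± 7.42 CPM), SCN8A (34.8 ± 12.8 and 39.5 ± 11.3 CPM) and SCN2A (11.2 ± 2.62 and 12.6 ± 2.71 CPM) had log2 fold changes of 0.08, 0.18 and 0.17, with adjusted p between 0.571 and 0.741 and none passing with the block.

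SCN1A was the exception among the sodium channels. It stood at 6.21, 8.29 and 23.9 CPM with DMSO and at 1.16, 4.29 and 14.3 CPM with tunicamycin, with raw counts of 22 to 453. It was lower in 6 of 6 pairs and 4 tunicamycin samples were below every DMSO sample, but both samples numbered 3 were the highest of their groups. The groups therefore overlapped and the log2 fold change of -1.05 ± 0.50 did not pass without the block (adjusted p = 0.240), while with the block it was -1.27 ± 0.25 (adjusted p = 0.00472). Pairs 1 and 2 had the deepest changes, -1.64 and -2.87 on the log2 scale, and the batch values were -1.14 and -0.96. In the fit with batch the value depended on the samples numbered 3: it was -1.74 without tunicamycin 3, where SCN1A passed (adjusted p = 0.0464 in edgeR), and -0.73 without DMSO 3 (adjusted p = 0.433).

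**Figure D4:**
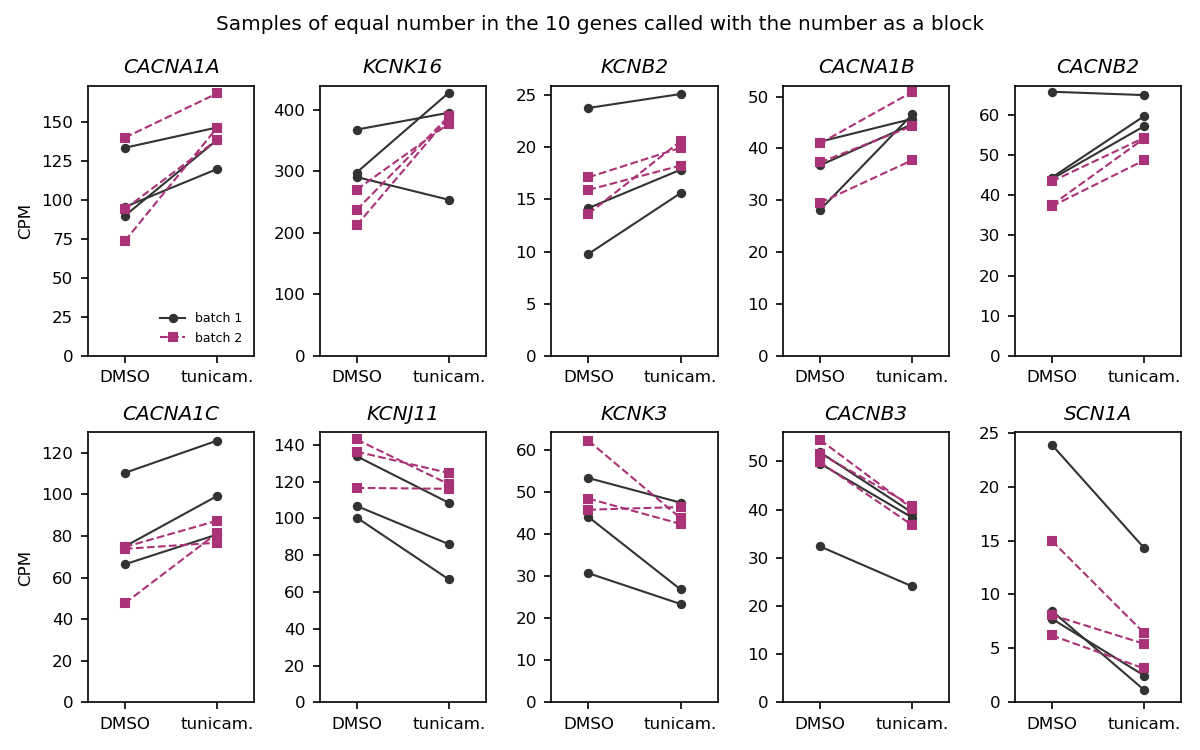
CPM of the 10 genes that passed with the sample number as a block, with a line joining the DMSO and tunicamycin samples of equal number (solid with circles for batch 1, dashed with squares for batch 2) and each vertical axis starting at 0. CACNB3 and SCN1A fall and CACNA1A rises in all 6 pairs, while in KCNK16 and CACNB2 5 pairs rise and 1 does not.

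Among potassium channels, which return the membrane to rest, KCNK16 and KCNB2 rose and KCNK3 fell with the block. KCNK16 stood at 212, 280 and 368 CPM with DMSO and at 254, 389 and 428 CPM with tunicamycin. Tunicamycin 1 was low, within the DMSO range, and the other 5 were above every DMSO sample. The log2 fold change of KCNK16 was 0.43 ± 0.14 (adjusted p = 0.0917, and 0.0430 with the block). It was 0.18 in batch 1 and 0.68 in batch 2, where KCNK16 was the only member that passed (3.93% of genes did, 2.70% as higher). The difference between batches did not pass (edgeR interaction, adjusted p = 1). KCNK3, a background channel closed by acid, stood at 30.7, 47.1 and 62.2 CPM and at 23.4, 43.1 and 47.5 CPM, lower in 5 of 6 pairs (-0.32 ± 0.17, adjusted p = 0.316, and 0.0423 with the block). KCNB2, a delayed rectifier, stood at 9.77, 15.04 and 23.8 CPM and at 15.6, 19.1 and 25.1 CPM, higher in 6 of 6 pairs (0.31 ± 0.19, adjusted p = 0.364, and 0.0444 with the block).

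The other voltage-gated potassium channels did not pass in either fit. KCNH6, a channel of the ERG family that repolarizes islet cells, stood at 94.1, 153 and 176 CPM with DMSO and at 74.0, 123 and 136 CPM with tunicamycin (-0.32 ± 0.17, adjusted p = 0.312). Its relative KCNH2 was at 127 ± 15.2 and 114 ± 14.4 CPM and was lower in 6 of 6 pairs (-0.17 ± 0.11, adjusted p = 0.405, and 0.133 with the block). KCNC4 (42.0 ± 5.10 and 48.5 ± 5.71 CPM, log2 fold change 0.21, higher in 6 of 6 pairs) and KCNC1 (16.5 ± 3.39 and 17.04 ± 1.43 CPM, 0.05) encode channels of the same family that open at high voltage and close quickly, of which KCNC4 inactivates fast and KCNC1 is a delayed rectifier. KCND3, an A-type channel that inactivates quickly, was at 12.1 ± 5.05 and 16.2 ± 4.79 CPM (0.42 ± 0.29, adjusted p = 0.433). KCNQ1, a slow channel of heart and epithelia, had only 12 to 63 counts per sample, at 1.48 ± 0.641 and 1.302 ± 0.655 CPM, and its sign differed between batches (-0.79 and 0.23). Its exons overlap those of KCNQ1OT1 and KCNQ1-AS1 on the opposite strand, as those of SCN1A and SCN9A overlap AC010127.1.

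Calcium-activated and G protein-gated potassium channels did not pass either. KCNN3, a small-conductance calcium-activated channel, was at 8.27 ± 2.30 and 12.02 ± 2.83 CPM and higher in 6 of 6 pairs (0.54 ± 0.22, adjusted p = 0.171, and 0.0558 with the block). Its change was 0.20 in batch 1 and 0.90 in batch 2 (edgeR interaction, adjusted p = 1). KCNMA1, the large-conductance calcium-activated channel, was at 109 ± 17.7 and 108 ± 17.7 CPM (-0.02 ± 0.13, adjusted p = 0.941). KCNJ3 (37.7 ± 5.26 and 34.1 ± 4.65 CPM, -0.14) and KCNJ6 (134 ± 20.4 and 126 ± 25.9 CPM, -0.09), which encode inward rectifiers opened by G protein-coupled receptors such as those for somatostatin, had adjusted p of 0.537 and 0.721. No member passed the test of a difference in response between the batches in edgeR, where 0 of 17137 genes passed, and 0 members had an unadjusted p under 0.05. DESeq2 gave 0 genes and 0 members likewise, and edgeR with the block gave 0 genes and 4 members at an unadjusted p under 0.05.

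Promoter windows in the RefSeq table (GRCh38.p14, 250 bases before to 50 after a start) were available for 25 of the 32 members, 43 windows in all. They were searched on both strands for letters known from ER stress response elements. The ERSE, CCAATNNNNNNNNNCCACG, was in 0 of the 43 windows and in 0.0769% of 35116 windows of all genes. The core of the amino acid response element bound by ATF4 and CHOP, TGATGNAA, was in 0 member windows and in 3.62% of all windows. The core TGACGT, shared by elements for CREB and ATF6, was in windows of CACNB2 and KCNN3 and in 7.98% of all windows. The GC box GGGCGG was in windows of 20 members (25 of 43 windows, against 45.0% of all windows) and CCAAT, which the ERSE contains, in windows of 11 members (12 windows, against 34.6%). A match or its absence in these windows describes letters only.

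The first listed windows of KCNK16 and of the genes whose calls with the block stood without any 1 pair, CACNA1A, CACNB3 and SCN1A, are shown because these are the changes least dependent on a single pair or, for KCNK16, the most abundant transcript. KCNK16 is on the minus strand at chr6:39322919-39323218, CACNA1A on the minus strand at chr19:13506430-13506729, CACNB3 on the plus strand at chr12:48814230-48814529 and SCN1A on the minus strand at chr2:166127971-166128270. Capitals mark GC boxes, CCAAT and TATAAA on either strand. The printed windows of KCNK16 and CACNB3 hold both CCAAT and a GC box, and that of CACNA1A holds 2 GC boxes. The printed window of SCN1A holds none of the letters searched, while the other one listed for SCN1A, chr2:166149112-166149411, holds CCAAT. GC content is 48.0%, 60.7%, 66.7% and 37.0%, in the order of the lines.
KCNK16: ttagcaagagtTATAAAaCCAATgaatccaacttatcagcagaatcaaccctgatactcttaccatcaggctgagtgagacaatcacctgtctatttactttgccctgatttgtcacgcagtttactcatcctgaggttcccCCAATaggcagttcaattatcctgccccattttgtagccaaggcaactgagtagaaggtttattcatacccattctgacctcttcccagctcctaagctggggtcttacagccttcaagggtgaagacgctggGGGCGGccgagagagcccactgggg
CACNA1A: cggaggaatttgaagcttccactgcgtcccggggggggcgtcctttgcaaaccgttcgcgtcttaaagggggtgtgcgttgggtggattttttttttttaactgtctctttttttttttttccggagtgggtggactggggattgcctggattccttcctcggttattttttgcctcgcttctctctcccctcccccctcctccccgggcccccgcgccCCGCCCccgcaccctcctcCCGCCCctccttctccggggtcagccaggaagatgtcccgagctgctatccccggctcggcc
CACNB3: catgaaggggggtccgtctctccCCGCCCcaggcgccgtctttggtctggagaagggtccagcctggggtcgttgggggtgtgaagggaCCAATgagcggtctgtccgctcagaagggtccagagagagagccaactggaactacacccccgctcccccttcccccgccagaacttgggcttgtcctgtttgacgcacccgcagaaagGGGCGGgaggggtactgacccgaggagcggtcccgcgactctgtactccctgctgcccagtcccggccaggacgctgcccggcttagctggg
SCN1A: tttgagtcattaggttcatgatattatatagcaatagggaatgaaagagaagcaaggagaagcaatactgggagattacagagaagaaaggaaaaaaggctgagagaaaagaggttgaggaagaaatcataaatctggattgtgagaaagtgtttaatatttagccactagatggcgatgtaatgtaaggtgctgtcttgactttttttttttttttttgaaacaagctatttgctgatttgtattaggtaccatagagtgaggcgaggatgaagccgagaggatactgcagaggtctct

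Of 174 further genes of channels, channel partners and ion pumps in 10 lists, 150 were tested. In the fit with batch 5 of the 150 rose and 6 fell, where 7.84% of all genes passed. With the block 17 rose and 16 fell, where 17.3% of all genes passed. The median log2 fold change of the 150 in the fit with batch was 0.03. Among 27 other voltage-gated potassium channel genes KCNH1 fell (-1.01, adjusted p = 0.0288), as did KCNIP1, a calcium-sensing partner of A-type channels (-1.40, adjusted p = 0.0241), and the tandem-pore gene KCNK5 (-1.24, adjusted p = 0.0369). Of 12 other calcium channel subunits 0 passed (3 at an unadjusted p under 0.05), while with the block 0 were higher and 2 lower. Of 18 other sodium channel genes SCNN1G (-1.17, adjusted p = 0.000816) and SCNN1B (-1.11, adjusted p = 0.0348), subunits of the epithelial channel that is not gated by voltage, fell. Of 17 HCN, TRP and other cation channels 3 rose: TRPC4 (0.80), TRPM3 (1.34) and the mechanosensitive channel PIEZO2 (0.89). Of 17 chloride channels BEST1 rose from 4.33 ± 0.747 to 14.6 ± 4.52 CPM (1.75 ± 0.22, adjusted p = 0.000200), and CFTR, an apical channel of duct cells, fell (-1.43). Of 17 pumps and exchangers 0 passed, with 1 at an unadjusted p under 0.05. In the remaining lists, 0 of 10 inward rectifier and KATP genes and 0 of 5 calcium-activated potassium channel genes passed, with 3 and 1 at an unadjusted p under 0.05. These calls are edgeR's, in the fit with batch except where the block is named.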

How the data were processed

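Raw counts per gene symbol were deposited by the authors as whole numbers. The submitters' processing notes name GRCh38 and the tools featureCounts 2.0.6, HISAT2 2.1.0 and cutadapt 4.4, while no source used here gives the annotation or strand setting. The labels call the samples biological replicates without saying whether each was a separate differentiation, so p-values measure the spread among these samples. Libraries of a group differed by 10.9 to 99.6 in chi-square per gene over genes with 20 or more counts, so all 12 were kept.

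From these counts, CPM with TMM-scaled library sizes, and edgeR 4.0.16 quasi-likelihood tests (R 4.3.3, filterByExpr, batch as covariate, Benjamini-Hochberg over 17137 genes, threshold 0.05, two-sided) were computed. DESeq2 1.42.0, limma 3.58.1 (voom), other scalings and filters, and fits leaving out samples were alternatives. Equal numbers were taken to pair samples: deviations from group and batch means correlated at 0.120 to 0.579 for equal numbers, against at most 0.273 for unequal numbers. What a number stands for is not stated in the labels. Lengths, positions and exon overlaps came from GENCODE release 29 (GRCh38), not necessarily the annotation behind the counts.

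The members, lists and tests were chosen with earlier results of these data known. All members are named; full values are given for those passing with batch or with the block, for ABCC8 and KCNJ11, and for the 2 most abundant per kb in each class. Other channel genes are named where they passed, at most 3 per list and direction, with a mean of at least 1 CPM; 1 such result is not reported here.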

Additional observations from a re-analysis of the deposited data

Results flagged for a closer look

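In 7 of 64 combinations of a channel gene and a group, 1 sample stood apart from the other 5 by a gap above Dixon's 95% critical value, which chance gives in about 1 in 20 groups. CACNB3 was low in both samples numbered 2, at 32.4 CPM in DMSO 2 against 49.6 to 54.5 CPM in the other DMSO samples and at 24.1 CPM in tunicamycin 2 against 36.8 to 40.8 CPM. KCNJ6 was high in both samples numbered 3, at 173 CPM in DMSO 3 against 116 to 132 CPM and at 175 CPM in tunicamycin 3 against 102 to 128 CPM. CACNB2 was high in DMSO 3, at 65.8 CPM against 37.3 to 44.4 CPM. KCNK16 was low in tunicamycin 1, at 254 CPM against 377 to 428 CPM, and SCN2A was high in tunicamycin 4, at 17.99 CPM against 10.5 to 12.1 CPM.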

How the results depend on the processing

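Without the block, 0 channel genes passed under limma-voom, RLE and upper-quartile scaling, no filter, no batch covariate and batch 1 alone. Members passing as higher numbered 6 with the replicate block, 2 with DESeq2, 1 in batch 2 alone, 1 and 2 with the block and the mesenchymal or heart muscle mean, 0 to 3 without 1 library and 1 to 6 (5 without pair 3) without 1 pair under the block. Members passing as lower numbered 4 with the replicate block, 1 with the block in samples numbered 2, 3 and 6, 3 with the block and the heart muscle mean, 0 to 1 without 1 library and 2 to 6 without 1 pair under the block. The libraries whose removal added members were DMSO 3 (KCNK16, CACNB2 and CACNA1A), DMSO 4 (CACNA1A), tunicamycin 1 (KCNK16), DMSO 2 (CACNB3) and tunicamycin 3 (SCN1A). The count over all genes, 1344, was 2967 with the replicate block, 2100 with DESeq2, 57 and 654 in batches 1 and 2 alone, 43 and, with the block, 806 in samples numbered 2, 3 and 6, and 282 with the block and the mesenchymal mean. It was 791 (without tunicamycin 4) to 1399 without 1 library and 2222, 2098, 2247, 1757, 2341 and 3239 without pairs 1 to 6 under the block. Fewer samples enter the fits on a batch or on 3 numbers, and otherwise the cause was not tested. The fits on numbers 2, 3 and 6, with marker means and without pairs were chosen after seeing the data. No member passed the interaction test in any of its 4 fits.

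Of 1056 alternative log2 fold changes of members, 62 had the opposite sign, and the cause was not tested. CACNA1E was at 0.023 with the replicate block, 0.065 with limma-voom, 0.12 in batch 1, and 0.043 and 0.070 with the mesenchymal mean without and with the block. CACNB1 was at -0.0045 with upper-quartile scaling and -0.094 with the mesenchymal mean and block, and ABCC8 at 0.15 with the latter. CACNA2D1 was at -0.0016 in samples 2, 3 and 6 and -0.057 with the mesenchymal mean. CACNA2D2 was at -0.013 with upper-quartile scaling, -0.14 in batch 1, -0.068 in samples 2, 3 and 6 in both fits, and -0.041 and -0.019 with the mesenchymal and heart muscle means. In samples 2, 3 and 6, without and with the block, SCN8A was at -0.024 and -0.028, SCN9A at -0.048 and -0.052, KCNC1 at -0.098 and -0.097, KCNQ1 at 0.14 in both and KCNJ6 at 0.029 and 0.023. SCN9A was at -0.080 with the mesenchymal mean, SCN3A at -0.038 in batch 2 and KCNC1 at -0.040 in batch 1. KCNQ1 was at 0.23 in batch 2, 0.16 and 0.44 with the mesenchymal mean without and with the block, and 0.050 and 0.32 with the heart muscle mean. KCNMA1 was at 0.035 in batch 2, 0.23 with the mesenchymal mean and block and 0.026 with the heart muscle mean and block. Without 1 library, CACNA1E ran from -0.14 to 0.16, CACNB1 from -0.061 to 0.17, CACNA2D2 from -0.096 to 0.088, KCNC1 from -0.051 to 0.12 and KCNMA1 from -0.11 to 0.064. Under the block with 1 pair left out, the opposite sign was found for CACNA1E at 0.15 without pair 2, 0.053 without pair 3, 0.098 without pair 4 and 0.16 without pair 6, CACNA2D2 at -0.12 without pair 5, KCNC1 at -0.076 without pair 5, KCNQ1 at 0.14 without pair 1 and KCNMA1 at 0.027 without pair 1 and 0.014 without pair 6.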

Other observations

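The highest and lowest values of the channel genes were not spread evenly over the libraries. No such counts over all genes are given here, so whether this is particular to channel genes was not tested. DMSO 3 was the highest DMSO sample for 12 of the 32 genes and the lowest for 1, while DMSO 5 was the lowest for 11 and DMSO 1 for 10. Among tunicamycin samples, numbers 2 and 3 were each the highest for 10 genes, and number 1 was the lowest for 13 and the highest for 0. DMSO 3 was also the library with the fewest counts, 17523442. The median coefficient of variation of the 32 genes was 21.3% with DMSO and 16.9% with tunicamycin, and no value over all genes is given beside it.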
